A study of Rattus norvegicus with 16 samples.

Results

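Troponin is the calcium switch of the thin filament of striated muscle, and 7 of its genes were followed in rat supraspinatus muscle after a rotator cuff tear. They are Tnni1, Tnnt1 and Tnnc1 of slow fibres, Tnni2, Tnnt3 and Tnnc2 of fast fibres, and Tnnt2, the cardiac gene that developing skeletal muscle also uses. The 7 genes were chosen by name, as 7 of the 17147 genes in the table, and all 7 were among the 11658 genes with enough fragments to be tested. The questions were how the slow and fast gene of each subunit stood to each other over time, and what became of Tnnt2.

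Troponin is built of the subunits C, I and T. Troponin C binds calcium, troponin I holds the filament inactive while calcium is low, and troponin T fastens the complex to tropomyosin. In adult skeletal muscle each subunit has a gene used mainly by slow fibres and another used mainly by fast fibres, except that the slow troponin C gene, Tnnc1, also serves the heart. Fibres in the embryo and regenerating fibres use Tnnt2 for a time before the adult troponin T genes take over.

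Transcripts were measured by sequencing of polyA-selected RNA in 16 libraries of supraspinatus, a rotator cuff muscle, from Sprague Dawley rats. The 4 libraries at 0 days came from unoperated rats. The other 12 were taken at 10, 30 and 60 days, 4 at each time, after a bilateral full-thickness supraspinatus tear together with suprascapular neurectomy, the cutting out of the nerve that supplies the muscle. All groups were therefore of one strain, no group had the tear without the nerve injury, and no operated group without a tear was analysed here. The labels used here give neither age nor sex, and they do not say which libraries share an animal, so p-values measure the spread between these libraries.

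Libraries held 17.2 to 39.9 M (mega) fragments, and the 60-day libraries had the lowest totals (17.2 to 22.4 M). Levels are given as fragments per 1 M fragments (CPM) after scaling by the trimmed mean of M values (TMM), which sets the bulk of genes level between libraries. The 7 genes together took 4.07% ± 0.207, 2.63% ± 0.0786, 4.26% ± 0.391 and 4.58% ± 0.548 (SD, n = 4) of all fragments at 0, 10, 30 and 60 days. The summed level of the 4 skeletal muscle markers found in the table was 100685 to 107315 CPM at 0 days, 16616 to 20746 CPM at 10 days, 33015 to 57843 CPM at 30 days and 55166 to 73872 CPM at 60 days. The 4 did not all move alike, since 3 were called lower and 1 higher at both 10 and 30 days. At 60 days 3 were called lower and 1 was not called. Among all genes 29.4%, 30.9% and 29.1% were called lower at 10, 30 and 60 days, and 33.3%, 33.7% and 29.9% higher. Summed over 5 markers each, macrophage genes ran from 26.5 to 38.4 CPM at 0 days and from 82.9 to 165 CPM at the later times, and fibroblast genes from 429 to 929 CPM and from 820.5 to 2599.8 CPM. The summed muscle marker level was below its 0-day range at all later times, also at 30 and 60 days, where no slow troponin gene was called. The part of these marker levels in the troponin results was not tested. In a bulk sample, fewer cells of a type and less RNA per cell cannot be told apart.

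Some of the troponin genes lie close together in the genome, in pairs of a troponin I and a troponin T gene. In the rat assembly GRCr8, slow Tnni1 and developmental Tnnt2 stand on chromosome 13 with 1 gene, Lad1, between them, and fast Tnni2 and Tnnt3 stand on chromosome 1 with 2 genes between them. RefSeq lists 2 starts for Tnnt2, and the sequence before the first is printed. The 250 bases before the start of Tnnt2, Tnni1 and Tnni2 are shown because Tnnt2 and its neighbour Tnni1 moved apart after injury while Tnni2 represents the fast genes. They are RefSeq sequences of GRCr8, 5′ to 3′ on the gene's strand, at chr13:49818873-49819122 for Tnnt2, chr13:49781279-49781528 for Tnni1 and chr1:207024240-207024489 for Tnni2, all on the plus strand. Capitals mark an MCAT element (CATTCC, a binding site of TEAD factors known from the cardiac troponin T promoter) or a TATA box (TATAAA), each searched on both strands.

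Tnnt2: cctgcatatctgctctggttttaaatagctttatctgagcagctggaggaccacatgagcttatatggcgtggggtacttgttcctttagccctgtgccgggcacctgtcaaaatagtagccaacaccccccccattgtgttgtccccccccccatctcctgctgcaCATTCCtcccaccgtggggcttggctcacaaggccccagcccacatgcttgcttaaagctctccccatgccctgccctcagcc

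Tnni1: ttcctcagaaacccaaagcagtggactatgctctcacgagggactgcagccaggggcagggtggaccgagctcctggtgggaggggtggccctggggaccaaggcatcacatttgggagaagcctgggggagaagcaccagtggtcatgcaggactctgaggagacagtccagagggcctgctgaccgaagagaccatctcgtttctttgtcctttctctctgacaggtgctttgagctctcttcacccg

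Tnni2: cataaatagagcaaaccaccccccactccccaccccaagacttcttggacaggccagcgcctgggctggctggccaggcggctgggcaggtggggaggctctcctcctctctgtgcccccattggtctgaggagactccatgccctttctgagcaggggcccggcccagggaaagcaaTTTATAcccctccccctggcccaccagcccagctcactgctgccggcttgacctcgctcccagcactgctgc

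The printed Tnnt2 window held 1 MCAT element, 83 bases before the start, and 12.1% of all 33469 rat windows of this length hold one. The window before the second Tnnt2 start, at chr13:49823809-49824058, held 0 MCAT elements and 1 E-box (CANNTG, the motif bound by MyoD and myogenin). Neither the Tnni1 nor the Tnni2 window held an MCAT element. The Tnni2 window held a TATA box on the reverse strand 72 bases before the start (12.9% of all windows). E-boxes were in all 3 printed windows, 4 in Tnnt2, 2 in Tnni1 and 1 in Tnni2, and 65.5% of all windows hold at least 1. None of these matches overlapped another, and each is a match of letters only, not a measured site.

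Against the unoperated muscle, all 3 fast and all 3 slow troponin genes fell at 10 days and Tnnt2 rose. The test was edgeR's quasi-likelihood test over all tested genes, with genes called at a Benjamini-Hochberg adjusted p under 0.05. It called 7 of 7 troponin genes, where it called 62.7% of all genes. Of the 7, 6 were lower (29.4% of all genes) and 1 was higher (33.3%). At 30 days 4 of 7 were called (64.6% of all genes), 3 of them lower (30.9%) and 1 higher (33.7%). At 60 days 2 of 7 were called (59.0% of all genes), 1 lower (29.1%) and 1 higher (29.9%). In a joint test of the 3 times all 7 were called, as were 84.7% of all genes. The later libraries did not overlap those at 0 days for 7 of 7 genes at 10 days, 3 of 7 at 30 days (Tnni2, Tnnc2 and Tnnt2) and 2 of 7 at 60 days (Tnnc2 and Tnnt2), and such separation was seen for 59.0%, 60.2% and 50.0% of all genes. The 3 comparisons share the 0-day libraries. The median log2 fold change of the 7 genes was -1.23, -0.33 and -0.01 at the 3 times, where that of all tested genes was 0.06, 0.05 and 0.04.

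Scaling mattered to these values. Under TMM 53.1%, 52.2% and 50.7% of the called genes were higher at 10, 30 and 60 days. With plain library totals the shares were 87.4%, 84.1% and 82.7%, and the median of all genes moved up to 0.72, 0.54 and 0.45. Changes are therefore given relative to the bulk of genes, with the directions that turn under library totals. Ratios between troponin genes of one library do not depend on it.

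**Figure D1:**
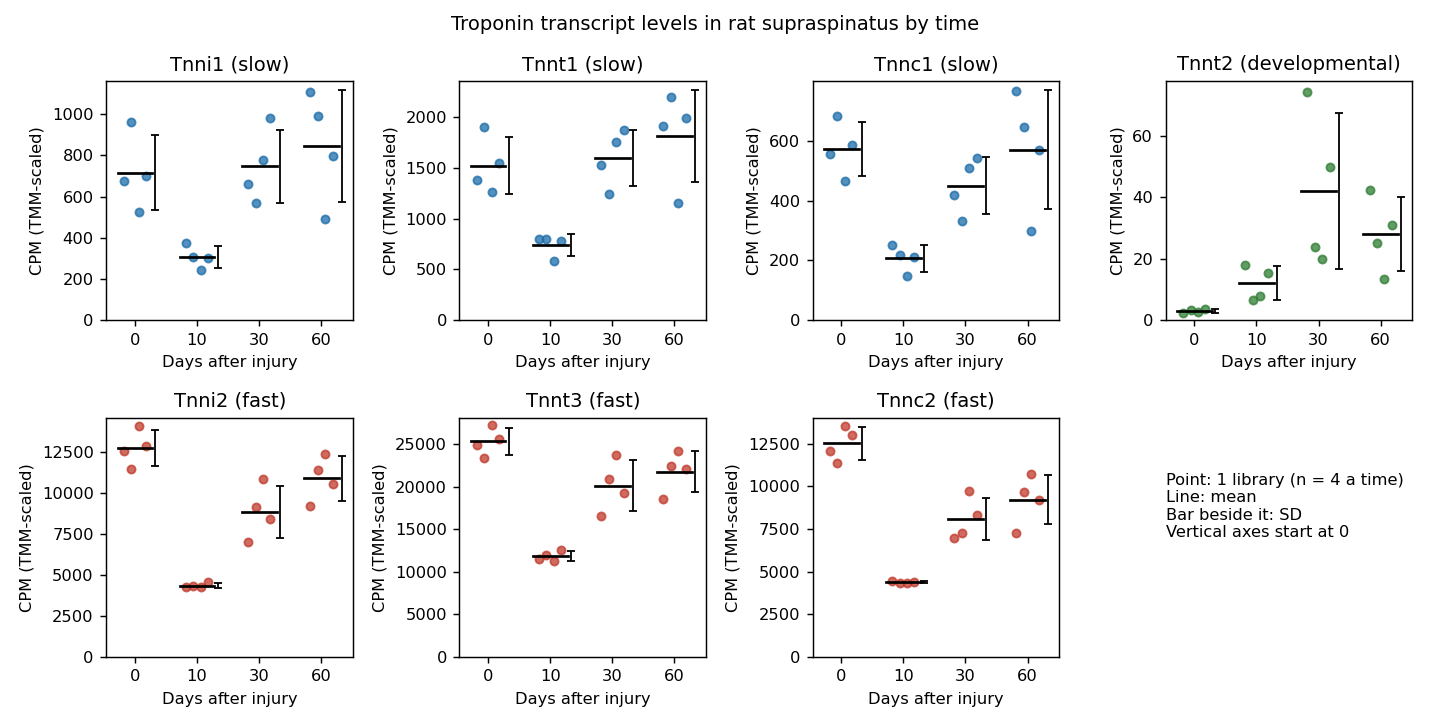
Level of each troponin gene (vertical axis, TMM-scaled CPM from 0) by days after injury (horizontal axis); each point is 1 library, the line is the mean and the bar beside it the SD of 4 libraries. The 6 adult genes have their lowest mean at 10 days, whereas Tnnt2 is lowest at 0 days and highest at 30 days.

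The fast genes fell at 10 days and had regained part of their level by 30 days. Tnni2, the inhibitory subunit of fast fibres, stood at 12539, 11488, 14104 and 12902 CPM in the 4 libraries at 0 days. At 10 days it was 4256, 4332, 4259 and 4545 CPM, at 30 days 7015, 9147, 10851 and 8422 CPM, and at 60 days 9184, 11427, 12407 and 10536 CPM. The 10-day libraries were below all others, the 30-day libraries were all below the 0-day ones, and the 60-day libraries overlapped both the 0-day and the 30-day ones. On the log2 scale Tnni2 fell by 1.55 ± 0.13 (SE) at 10 days (adjusted p = 3.89e-08) and by 0.53 ± 0.13 at 30 days (adjusted p = 0.00209), and its difference at 60 days was -0.23 ± 0.13 (adjusted p = 0.139). With library totals the 10-day fall was 0.89 and still called, but the 30-day value was -0.04 (adjusted p = 0.751) and the 60-day value turned to 0.18.

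Tnnc2, the calcium sensor of fast fibres, went from 12514 ± 973 CPM (mean ± SD, n = 4) at 0 days to 4375 ± 53.8 CPM at 10 days, 8076 ± 1226 CPM at 30 days and 9205 ± 1446 CPM at 60 days. Its 0-day libraries (11372 to 13559 CPM) lay above every later one, of which the highest was 10718 CPM at 60 days. It was the only one of the 6 adult genes called lower at all 3 times, by log2 values of -1.52 ± 0.13 (adjusted p = 4.23e-08), -0.63 ± 0.13 (adjusted p = 0.000421) and -0.44 ± 0.13 (adjusted p = 0.00716). The call at 60 days was lost with upper-quartile scaling (-0.30, adjusted p = 0.0619), and with library totals the values at 30 and 60 days were -0.14 and -0.03, neither called.

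Tnnt3, which anchors fast troponin to tropomyosin, fell at 10 and 30 days by smaller values than Tnni2 and Tnnc2. Its mean was 25316 ± 1615 CPM at 0 days, 11819 ± 567 CPM at 10 days, 20097 ± 2979 CPM at 30 days and 21774 ± 2366 CPM at 60 days. The 10-day libraries (11204 to 12509 CPM) were below all others, whereas one 30-day library, at 23695 CPM, reached the 0-day range of 23399 to 27294 CPM. The log2 fold change was -1.10 ± 0.12 at 10 days (adjusted p = 9.42e-07), -0.33 ± 0.12 at 30 days (adjusted p = 0.0254) and -0.22 ± 0.12 at 60 days (adjusted p = 0.137). The 30-day call was weak. It was lost without any one of 5 libraries (0 days replicates 1, 3 and 4, and 30 days replicates 1 and 4), with values of -0.33, -0.29, -0.32, -0.25 and -0.31 and adjusted p from 0.0532 to 0.0838, and with upper-quartile scaling (-0.21, adjusted p = 0.156). With library totals it turned to 0.15 (adjusted p = 0.209).

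The slow genes fell at 10 days as well, and at 30 and 60 days none of them was called against 0 days. Tnni1, the inhibitory subunit of slow fibres, was at 674, 964, 526 and 701 CPM at 0 days. At 10 days it was at 376, 307, 244 and 299 CPM, at 30 days at 662, 568, 777 and 979.8 CPM, and at 60 days at 1109.8, 992, 489 and 797 CPM. All 10-day libraries were below all others, and the 0-, 30- and 60-day libraries overlapped throughout. Tnni1 fell by 1.23 ± 0.24 on the log2 scale at 10 days (adjusted p = 0.000389), and its values at 30 and 60 days, 0.06 ± 0.24 and 0.24 ± 0.24, were not called (adjusted p = 0.839 and 0.400). The value at 30 days was -0.06 without 0 days replicate 3 and -0.10 without 30 days replicate 4. With library totals Tnni1 was called higher at both later times, by 0.55 (adjusted p = 0.0451) and 0.64 (adjusted p = 0.0241).

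Tnnt1, the slow troponin T gene, had its lowest level at 10 days too. Its mean was 1525 ± 279 CPM at 0 days, 743 ± 109 CPM at 10 days, 1601 ± 280.2 CPM at 30 days and 1817 ± 457 CPM at 60 days. The 10-day libraries (580.0 to 805 CPM) were again below every other one, of which the lowest was 1155 CPM, and the groups at 0, 30 and 60 days overlapped. It fell by 1.04 ± 0.19 at 10 days (adjusted p = 0.000169), a call lost with library totals (-0.38, adjusted p = 0.0740). At 30 and 60 days the log2 fold changes were 0.07 ± 0.19 (adjusted p = 0.759) and 0.25 ± 0.19 (adjusted p = 0.257). Without 60 days replicate 3 the 60-day value was 0.42 and called (adjusted p = 0.0393), as were the library-total values at 30 and 60 days, 0.56 and 0.66. Without 0 days replicate 3 the 30-day value was -0.0037, and without 30 days replicate 4 it was -0.02.

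Tnnc1, the calcium sensor of slow fibres and of the heart, had the lowest log2 value of the slow genes at 10 days. Its mean went from 572 ± 89.8 CPM at 0 days to 207 ± 44.4 CPM at 10 days, 449.7 ± 94.8 CPM at 30 days and 569.9 ± 199 CPM at 60 days. The 10-day range, 146 to 253 CPM, lay below the lowest later library, at 298 CPM. The log2 fold change at 10 days was -1.47 ± 0.25 (adjusted p = 8.48e-05). At 30 days it was -0.35 ± 0.24 and at 60 days -0.01 ± 0.24, neither called (adjusted p = 0.217 and 0.985). With library totals those 2 values were 0.14 and 0.40, also not called.

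**Figure D2:**
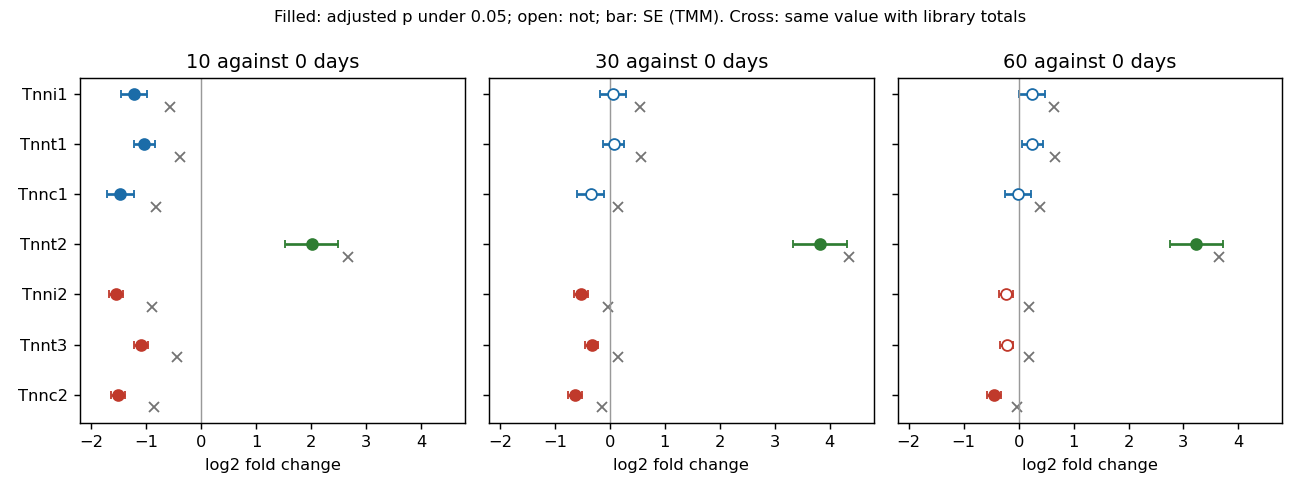
Log2 fold change of each troponin gene (horizontal axis) at 10, 30 and 60 days against 0 days; circles are TMM-scaled values with SE bars, filled where the adjusted p was under 0.05, and crosses are the same values with library totals. All 6 adult genes lie left of 0 at 10 days under both scalings, and Tnnt2 lies right of 0 at all 3 times under both.

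Between later times the adult genes moved back up. From 10 to 30 days all 7 troponin genes were called higher, where 47.3% of all genes were called and 23.0% were called higher. The log2 rises of the fast genes were 1.03 for Tnni2, 0.88 for Tnnc2 and 0.77 for Tnnt3, and those of the slow genes were 1.28 for Tnni1, 1.12 for Tnnc1 and 1.11 for Tnnt1 (adjusted p from 1.14e-05 to 0.00144). In all 7 genes no 10-day library reached the 30-day range, which held for 43.8% of all genes. From 10 to 60 days again all 7 were called higher (61.1% of all genes called, 29.1% higher), by 0.88 to 1.47, and all but Tnnt2 did so without overlap (51.2% of all genes).

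From 30 to 60 days edgeR called 0 of the 7 genes, where it called 22.6% of all genes, and the 2 times overlapped for each of the 7, as they did for all but 20.1% of all genes. An unadjusted p under 0.05 was reached by 1 gene, Tnni2, at 0.0353 (log2 0.30, adjusted p = 0.109). DESeq2 called that gene (0.32, adjusted p = 0.0378), and edgeR called it without 30 days replicate 3 (0.41, adjusted p = 0.0281) or without 60 days replicate 1 (0.37, adjusted p = 0.0418). By level, then, each fast gene ran 10, 30, 60 and 0 days from lowest to highest, and the 60-day mean was not called apart from the 30-day one. Tnni1 and Tnnt1 ran 10, 0, 30 and 60 days, with only the step from 10 days exceeding the spread between libraries. Tnnc1 ran 10, 30, 60 and 0 days, and its last 3 means were likewise not called apart.

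Tnnt2 went the other way. It was at 2.42, 3.23, 2.54 and 3.64 CPM in the 0-day libraries, from 43 to 88 fragments each, where 3 fragments were taken as the limit of detection. At 10 days it was at 17.99, 6.64, 7.94 and 15.2 CPM, at 30 days at 74.2, 23.7, 19.96 and 49.9 CPM, and at 60 days at 42.4, 24.96, 13.5 and 30.9 CPM. Every later library was above every 0-day one, the 10- and 30-day groups did not overlap either, and the 60-day group overlapped both. Tnnt2 rose by 2.01 ± 0.48 at 10 days (adjusted p = 0.00189), 3.82 ± 0.49 at 30 days (adjusted p = 7.25e-06) and 3.24 ± 0.49 at 60 days (adjusted p = 4.68e-05) on the log2 scale.

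The spread among injured libraries was wide. The highest 30-day library was at 74.2 CPM and the lowest at 19.96 CPM, around a mean of 42.0 ± 25.3 CPM (SD, n = 4). From 10 to 30 days Tnnt2 rose by 1.81 ± 0.43 (adjusted p = 0.00262), and its value from 30 to 60 days was -0.58 ± 0.41 (adjusted p = 0.338). It was called higher at 60 than at 10 days, by 1.23 ± 0.42 (adjusted p = 0.0205), though these groups overlapped. That call was lost without 10 days replicate 2 (1.03, adjusted p = 0.0631), 10 days replicate 3 (1.07, adjusted p = 0.0592) or 60 days replicate 1 (0.95, adjusted p = 0.0928), and with library totals (0.97, adjusted p = 0.0693).

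Since Tnnt2 is also the heart's gene, 7 cardiac markers were read beside it, with a summed level of 34.9 to 148 CPM at 0 days, 41.2 to 77.5 CPM at 10 days, 29.6 to 121 CPM at 30 days and 68.2 to 186 CPM at 60 days. Myl7, the atrial light chain, had at most 1 fragment in any library, and the natriuretic peptide genes Nppa and Nppb had at most 2 and 1. Tnni3, the cardiac troponin I gene, had 2 to 25 fragments, with mean levels of 0.292, 0.609, 0.519 and 0.723 CPM at 0, 10, 30 and 60 days. It was called higher at 10 days (log2 1.01, adjusted p = 0.0437) and 60 days (1.25, adjusted p = 0.0193), the first of which was lost with DESeq2's size factors in edgeR (RLE, 0.97, adjusted p = 0.0505), at levels below 1 CPM in all libraries. Myh6, the alpha cardiac myosin gene, was at 4.06 to 127 CPM at 0 days and was not called at any time. Mybpc3, the cardiac myosin-binding protein C gene, was called lower at all 3 times, by -1.49, -1.47 and -3.24. The summed level of the 2 satellite cell markers, of the muscle's stem cells, was 3.19 to 4.37 CPM at 0 days, 7.23 to 13.8 CPM at 10 days, 7.36 to 11.9 CPM at 30 days and 4.85 to 7.60 CPM at 60 days, and its part in the Tnnt2 result was not tested. At each of the later times 1 of the 2 was called higher than at 0 days and 1 was not called. The share of all genes called higher was 33.3%, 33.7% and 29.9% at 10, 30 and 60 days.

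Tnnt2 was also set against the adult troponin T genes of the same library, without division by gene length. Per 10000 fragments of Tnnt1 and Tnnt3 together there were 0.890 to 1.34 fragments of Tnnt2 at 0 days. The later ranges were 5.18 to 14.6, 7.85 to 41.0 and 5.34 to 20.8. The later ranges all lay above the 0-day range, and they overlapped each other. The mean log2 ratio was higher by 3.01, 3.96 and 3.33 at 10, 30 and 60 days, each with p = 0.0286 in a two-sided exact permutation test, the smallest p that 4 against 4 libraries can give. Adjusted over the 24 ratio comparisons within subunits that p became 0.229, so none of the 3 passed the threshold. With 4 libraries a group, that threshold can be passed only if many of the 24 comparisons reach the smallest p together. From 10 to 30 days the ratio differed by 0.95 (exact permutation p = 0.200), an interval over which Tnnt1 and Tnnt3 rose as well.

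The slow-to-fast ratio asks whether the subunit pairs moved apart. For troponin I, the fragments of Tnni1 per 100 of Tnni2 numbered 5.38, 8.39, 3.73 and 5.44 at 0 days. The 10-day libraries had 8.83, 7.08, 5.73 and 6.59, the 30-day libraries 9.43, 6.21, 7.16 and 11.6, and the 60-day libraries 12.1, 8.68, 3.94 and 7.56. The later libraries tended to lie higher, but at each time they overlapped the 0-day range. The mean log2 ratio was 0.34 higher at 10 days (exact permutation p = 0.229), 0.60 at 30 days (p = 0.143, exact) and 0.44 at 60 days (p = 0.286, exact). Fragments were not divided by gene length, so the ratio's size says nothing of slow and fast molecules, whereas its change does not depend on fixed lengths.

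The troponin T and troponin C ratios of the later libraries likewise overlapped those at 0 days. Tnnt1 stood at 6.09 ± 1.49, 6.28 ± 0.787, 8.08 ± 1.74 and 8.51 ± 2.54 fragments per 100 of Tnnt3 (mean ± SD, n = 4) at 0, 10, 30 and 60 days. The log2 differences from 0 days were 0.07, 0.41 and 0.45 (exact permutation p = 0.771, 0.171 and 0.200). Tnnc1 stood at 4.63 ± 1.06, 4.72 ± 0.978, 5.57 ± 0.862 and 6.56 ± 3.19 fragments per 100 of Tnnc2 in the same order. The log2 differences were 0.03, 0.28 and 0.38 (exact permutation p = 0.857, 0.229 and 0.400). Over the 24 ratio comparisons, 0 passed the threshold after adjustment, and the 3 with an unadjusted p under 0.05 were those of Tnnt2. The smallest exact permutation p, 0.0286, passes this adjustment only where many comparisons reach it together. The count of 0 therefore cannot show that the ratios stayed unchanged.

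Leaving out 1 library moved these differences without bringing any past the threshold, which 4 against 3 libraries cannot reach (smallest exact permutation p 0.0571). At 60 days the difference ran from 0.21 to 0.75 for troponin I, 0.33 to 0.71 for troponin T and 0.10 to 0.74 for troponin C. At 10 days the troponin T and troponin C differences changed sign, from -0.05 to 0.22 and from -0.11 to 0.18.

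**Figure D3:**
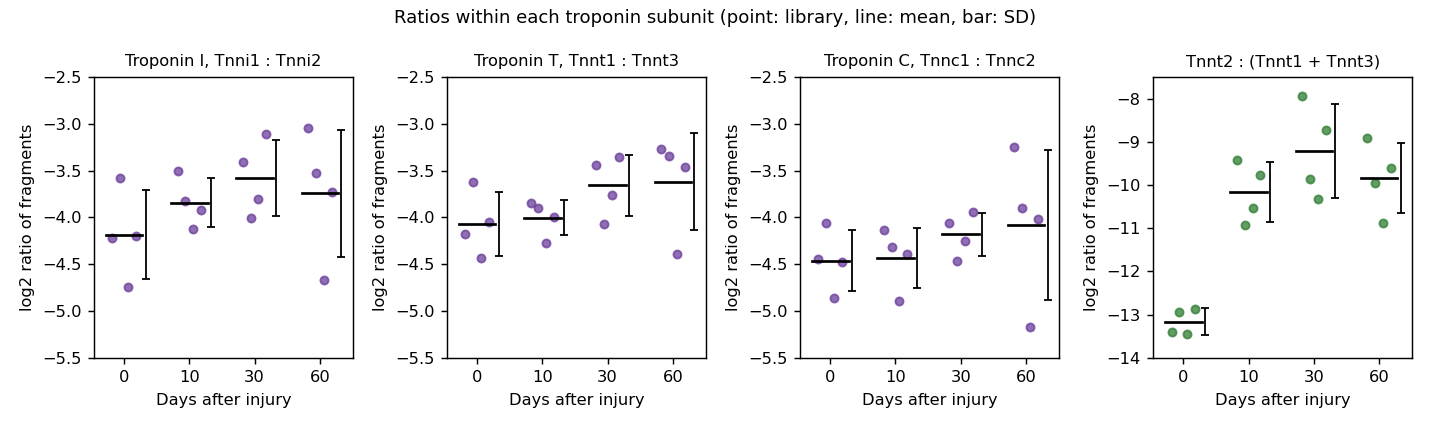
Log2 ratio of fragments (vertical axis) by days after injury for the slow to fast gene of troponin I, T and C, and for Tnnt2 to Tnnt1 plus Tnnt3; each point is 1 library, the line is the mean and the bar the SD of 4 libraries. The slow-to-fast ratios of all times overlap, with the widest spread at 60 days, and the Tnnt2 ratio lies higher in all 12 injured libraries than in the 4 at 0 days.

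Within each time the 3 subunits ranked their extreme libraries alike. The library with the highest slow-to-fast ratio for troponin I was also the highest for troponin T and for troponin C, at each of the 4 times, and the same held for the lowest. At 0 days these were replicates 2 and 3, at 10 days 1 and 3, at 30 days 4 and 2, and at 60 days 1 and 3. After each group's mean was taken away, Pearson's r over the 16 libraries was 0.96 between troponin I and T, 0.95 between I and C and 0.92 between T and C. The Tnnt2 ratio varied with them less tightly (r from 0.67 to 0.71). These values describe points that share the library, and no test was made of them. At 60 days replicate 1 had 12.1, 10.4 and 10.6 slow per 100 fast fragments for troponin I, T and C, and replicate 3 had 3.94, 4.78 and 2.78.

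Proportions among the 3 genes of one fibre class were compared in the same way. Among fast genes, the log2 ratio of Tnni2 to Tnnt3 was 0.45 lower at 10 days than at 0 days (coded as -0.45), with SDs of 0.034 and 0.030 among the 10-day and 0-day libraries. The ratio was -0.20 from its 0-day mean at 30 days and -0.01 at 60 days. At 10 and 30 days no library overlapped the 0-day range (exact permutation p = 0.0286 each), and at 60 days the ranges overlapped (exact permutation p = 0.714). The ratio of Tnnt3 to Tnnc2 was higher by 0.42, 0.30 and 0.23 at 10, 30 and 60 days, with no overlap at any of them (exact permutation p = 0.0286 each). Tnni2 to Tnnc2 differed by -0.04 and 0.10 at 10 and 30 days, within the spread, and by 0.22 at 60 days without overlap (exact permutation p = 0.0286).

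Among slow genes, the ratios to Tnnc1 lay above their 0-day ranges at 10 and 30 days. Tnnt1 to Tnnc1 was higher by 0.45 at 10 days and 0.43 at 30 days, and Tnni1 to Tnnc1 by 0.28 and 0.42, without overlap with 0 days (exact permutation p = 0.0286 each). At 60 days the differences were 0.30 (exact permutation p = 0.114) and 0.28 (p = 0.0571, exact). Tnni1 to Tnnt1 differed by -0.18, -0.01 and -0.02, overlapping the 0-day range each time. The slow-to-fast log2 ratio of troponin T was 0.28 below that of troponin I at 10 days relative to 0 days (coded as -0.28, exact permutation p = 0.0286), without overlap. Of the 27 comparisons of this kind, 11 had the smallest possible p, which became 0.0701 after adjustment, so 0 passed the threshold. With 4 libraries a group, any could pass only if still more of the 27 reached that p.

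**Figure D4:**
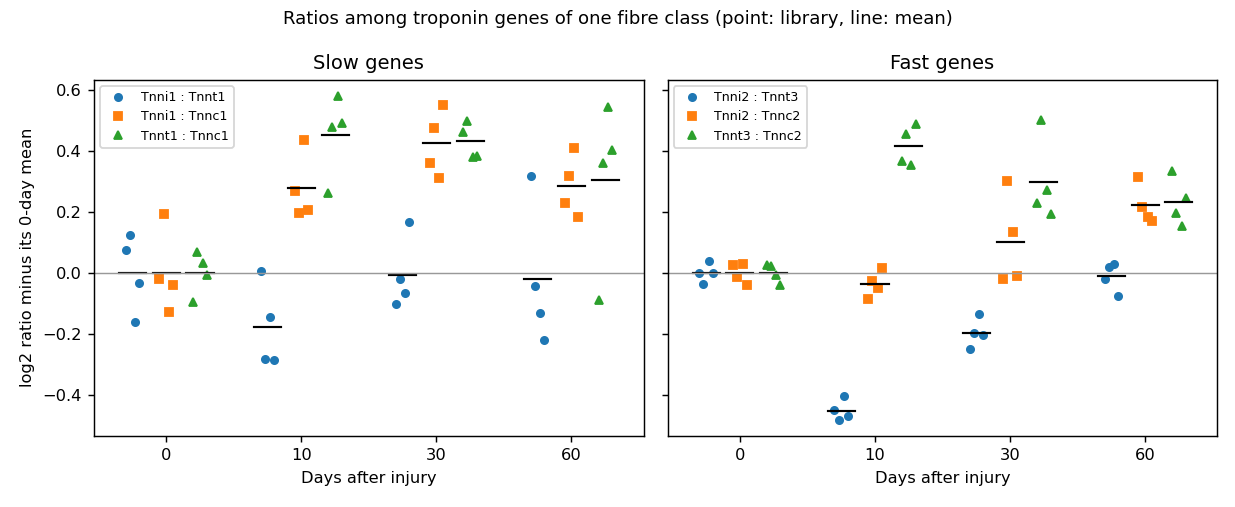
Log2 ratio between troponin genes of one fibre class, each minus its 0-day mean (vertical axis), by days after injury; points are libraries and lines are means. The 4 libraries of Tnni2 to Tnnt3 at 10 days lie close together around -0.45, and Tnnt3 to Tnnc2 lies above its 0-day libraries at all 3 later times.

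Troponin works on actin and tropomyosin, and other thin filament genes moved in both directions. Of 17 listed, 14 were tested, and 7 were called higher and 7 lower at 10 days, 3 and 7 at 30 days, and 1 and 7 at 60 days. Among all genes the shares called higher were 33.3%, 33.7% and 29.9%, and those called lower 29.4%, 30.9% and 29.1%. Acta1, the adult skeletal actin, changed by -3.01, -1.18 and -0.71, and the tropomyosin genes Tpm1 by -1.54, -0.83 and -0.75 and Tpm2 by -2.32, -0.94 and -0.61, all called. The adult troponin T genes, at -1.10 and -1.04, thus lay nearer 0 than these 3 partners at 10 days. The other adult troponin genes ran from -1.55 for Tnni2 to -1.23 for Tnni1, a range that included the value of Tpm1. Actc1, the cardiac and fetal actin, rose by 3.58 and 4.43 at 10 and 30 days and was at 0.91 at 60 days (adjusted p = 0.0693). Klhl40 and Klhl41, which stabilise thin filament proteins, rose at 10 days by 1.29 and 0.99. With library totals the list held 8 higher and 5 lower at 10 days, 7 and 5 at 30 days, and 5 and 2 at 60 days, while Acta1, Tpm1 and Tpm2 kept negative values at each time.

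The other listed genes of each fibre class had lower medians at 10 days than the troponins of that class. For the counts below, 29.4%, 30.9% and 29.1% of all genes were called lower at 10, 30 and 60 days. The shares called higher were 33.3%, 33.7% and 29.9%. Of 11 slow fibre genes 10 were called lower at 10 days, 5 at 30 days and 2 at 60 days, with 0 higher at any time and median log2 fold changes of -1.84, -0.42 and -0.16. Myl3, the slow essential light chain, was at -3.92 at 10 days, and Myl2, the slow regulatory light chain, at -2.56. Of 12 fast fibre genes 12 were called lower at 10 days, 8 at 30 days and 9 at 60 days, with 1 higher at 60 days and medians of -2.47, -1.40 and -0.97. They ranged at 10 days from -4.38 for Mybpc2, the fast myosin-binding protein C, to -0.48 for the calcium buffer Pvalb. The medians of the 3 slow and the 3 fast troponins at 10 days were -1.23 and -1.52. With library totals the slow list had 7 lower and 0 higher at 10 days but 3 of each at 30 days and 3 higher at 60 days, and the fast list held 11, 8 and 8 lower with 0, 3 and 3 higher. Upper-quartile scaling gave 3 higher and 1 lower in the slow list at 60 days.

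Tnnt2 belongs with 4 listed developmental sarcomere genes, of which 3, 3 and 2 were called higher at 10, 30 and 60 days. Among all genes 33.3%, 33.7% and 29.9% were called higher at those times. Myh3, the embryonic myosin heavy chain, rose by 1.81, 3.801 and 3.67, and Myl4, the embryonic and atrial light chain, by 3.48, 3.83 and 2.74. Myh8, the perinatal myosin, was lower by -0.91 at 10 days and -1.07 at 60 days, and with library totals neither was called. All 7 tested genes of the regeneration and denervation list, among them the acetylcholine receptor subunits Chrna1 and Chrng and the myogenic factor Myog, rose at 10 and 30 days, and 6 of the 7 at 60 days. Chrng rose by 7.11, 7.58 and 2.54, and Myog by 4.35, 4.11 and 2.22. Both genes were thus nearer their 0-day level at 60 than at 30 days, where Tnnt2 was at 3.24 against 3.82. The difference between those courses was not tested.

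**Figure D5:**
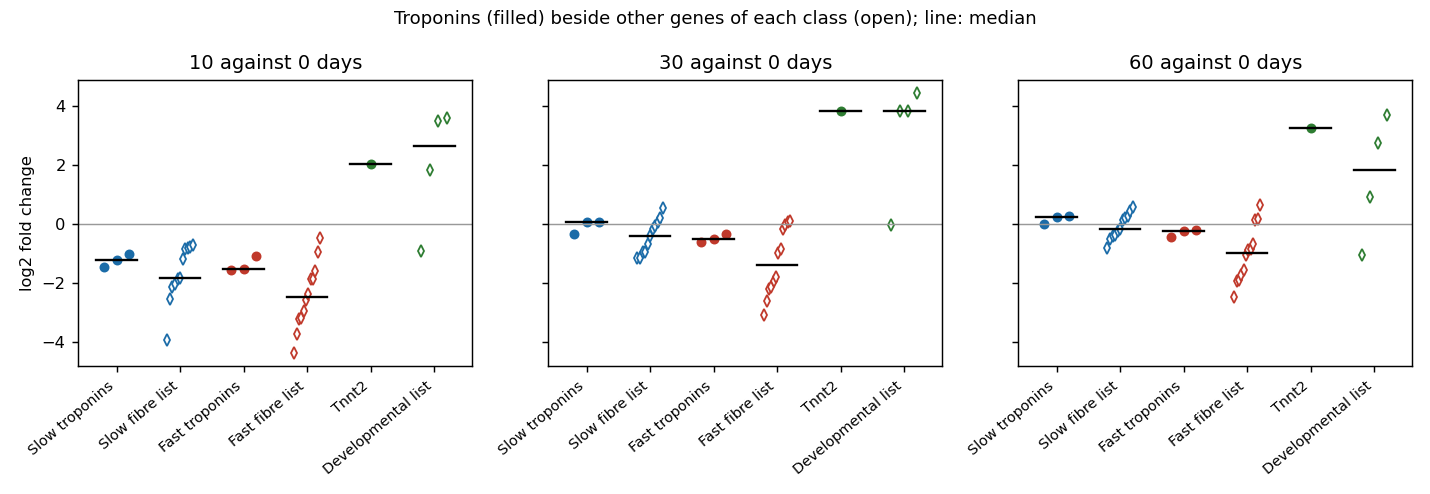
Log2 fold change at 10, 30 and 60 days against 0 days (vertical axis) of the troponin genes (filled circles) and of the other listed genes of each class (open diamonds); the line is the median of each set. The medians of the slow and fast lists lie below those of the slow and fast troponins at all 3 times, and Tnnt2 lies among the developmental genes.

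Genes known to set fibre type gave a mixed picture. Of 12 tested regulators 7 were called lower and 2 higher at 10 days, 10 and 1 at 30 days, and 7 and 0 at 60 days. The shares of all genes were 29.4% lower and 33.3% higher, 30.9% and 33.7%, and 29.1% and 29.9%. Tead1, whose protein binds MCAT elements, was at -1.08, -1.95 and -1.71. Any link between its level and that of Tnnt2 was not tested. Tbx15, a factor of fast glycolytic fibres, was at -0.76, -0.82 and -0.78, and Vgll2, a cofactor of TEAD proteins, at -1.93, -0.96 and -0.04, the last not called. Sox6, which represses slow genes in fast fibres, was at -0.12 at 10 days (not called), -0.79 at 30 days and -1.16 at 60 days. With library totals Tead1 and Tbx15 were no longer called at 10 days (-0.43 and -0.11) and the list held 2 lower and 3 higher there.

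The chromosomal pairs differed from each other in course. Tnni1 fell at 10 days where Tnnt2, on the far side of Lad1, rose. Lad1 itself was at -0.64 (adjusted p = 0.200), 0.62 (adjusted p = 0.173) and 1.47 (adjusted p = 0.00334) at 10, 30 and 60 days. Tnni2 and Tnnt3 both fell at 10 days and both rose from 10 to 30 days, while Lsp1, between them, was at 0.17, 0.23 and 0.30, not called at any time. Tnnt1 fell at 10 days where its neighbour Tnni3 was called higher. That Tnni3 call was at levels below 1 CPM and was lost with RLE factors, and the Tnnt1 call was lost with library totals.

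Across all 16 libraries the genes of one class varied together. Pearson's r of log2 CPM was 0.99 between Tnni2 and Tnnt3, 0.98 between Tnni2 and Tnnc2 and 0.98 between Tnni1 and Tnnt1. It was 0.68 to 0.79 between slow and fast genes and -0.34 to 0.26 between Tnnt2 and the other 6. These are descriptions over 16 points that share libraries and the time course, so genes with the same time course score high.

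The most similar genes were sought among 8217 others with a mean of at least 5 CPM, by the same r over the 16 libraries. For Tnni1 they were Myl2 (0.96), Myoz2 (0.92) and Myl3 (0.91), for Tnnt1 Myl2 (0.96), Myh7b (0.93) and Sco1 (0.92), and for Tnnc1 Myoz2 (0.96), Myh7 (0.94) and Myl2 (0.94). All but Sco1, a mitochondrial copper chaperone, are sarcomere genes of slow muscle. For the fast genes they were mostly genes of energy metabolism, with Cox5a, Ndufs3 and Eno3 (all 0.99) for Tnni2, Ndufs3, Suclg1 and Eno3 (all 0.99) for Tnnt3, and Slc25a4, Atp5b and Nudt9 (all 0.98) for Tnnc2. Eno3, the muscle enolase, went from 11810 ± 778 CPM at 0 days to 1160 ± 177 CPM at 10 days, a larger drop than that of any troponin gene (log2 -3.35). For Tnnt2 they were Myh3, Tspo and Arhgef2 (all 0.96). Tspo, an outer mitochondrial membrane protein, was at 7.95 ± 1.26, 21.4 ± 1.70, 53.6 ± 9.12 and 35.5 ± 5.47 CPM at 0, 10, 30 and 60 days, and thus had its highest mean at 30 days like Tnnt2.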

How the data were processed

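For the 16 libraries the authors deposited expected counts, estimated fragments of each gene in each library, not scaled for depth or length. The submitters' processing notes name bcl2fastq 1.8.4, FastQC, TopHat2 2.0.9, Bowtie2 2.1.0.0, Cufflinks, Cuffdiff 2.1.1 and the build rn5, while the annotation, the use of strand and any filter are not given in the sources used here. Of the 17147 genes, 233 had a fractional value, none of them a troponin gene, and values were rounded to whole counts. Genes passing edgeR's filter on low counts (11658) were fitted over all 4 groups with edgeR 4.0.16 in R 4.3.3, using TMM factors and the robust quasi-likelihood test, with Benjamini-Hochberg adjustment over all of them. The SE of a log2 fold change was not fitted directly. It was derived as the absolute log2 fold change divided by the square root of that test's F value. Log2 ratios were tested with an exact two-sided permutation test (scipy 1.17.1) in families of 24 and 27. Figures were drawn with matplotlib 3.10.9.

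The members and the gene lists were chosen with earlier results of these data known. Genes named are the 7 members, examples from the lists (the smallest and largest changes and those a result needed) and the 3 most similar genes of each member. Of the 7 members all matched the RefSeq gene table of GRCr8 by symbol, used for names, neighbours and promoter windows only since the counts rest on another build, and 5 had a promoter window (not Tnnt3 or Tnnc1). In data simulated for 10 against 0 days, 160 of 200 genes changed 2-fold were recovered among 11520 tested, with 11 unchanged genes called. The changed genes went up and down alike and were far fewer than the 62.7% called in the real comparison. The simulation therefore did not test the scaling. A simulated 60 against 30 days without changes gave 1 call.

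A limit of 3 fragments was 0.0752 to 0.175 CPM by library and covers counting error only. Replicates of one group differed beyond counting noise in all 24 pairs (chi-square per gene from 13.2 to 108). Alternatives were DESeq2 1.42.0, limma-voom (limma 3.58.1), other scalings and filters, each library left out, and a letter in the sample titles, of unstated meaning, as a covariate.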

Additional observations from a re-analysis of the deposited data

Results flagged for a closer look

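Of 44 groups of 4 libraries examined for a library far from the others, 28 of gene levels and 16 of ratios, 1 was singled out, and chance alone does so for about 1 in 20 groups. Tnnt1 in the 10-day library of replicate 3 was at 580.0 CPM, below the other 3 libraries of that time, which lay between 786 and 805 CPM. The same library also had the lowest Tnni1 and Tnnc1 levels of its group, at 244 and 146 CPM, and the lowest slow-to-fast ratio for all 3 subunits. Without any one library, the fall of Tnnt1 at 10 days ranged from -1.11 to -0.91 on the log2 scale and stayed called.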

How the results depend on the processing

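Counts of called troponin genes moved by over 1.5 times, or away from 0, in 2 comparisons. At 60 against 0 days upper-quartile scaling left 1 gene in place of 2, and at 60 against 30 days DESeq2 gave 1 in place of 0, as did leaving out 1 of 2 libraries (range 0 to 1). Directions turned with library totals for Tnnt3 and Tnnc1 at 30 against 0 days (0.15 and 0.14) and for Tnni2, Tnnt3 and Tnnc1 at 60 against 0 days (0.18, 0.19 and 0.40), none of them called. Library totals moved all genes up together, as the median of all genes shows. Tnnc1 at 60 against 0 days, at -0.01, also turned with upper-quartile scaling (0.13), genes of at least 1 CPM only (0.038), a fit of the 2 groups alone (0.017) and the title letter as covariate (0.024), where the cause was not tested, and ranged from -0.19 to 0.21 with 1 library left out. Tnni1 and Tnnt1 at 30 against 0 days ranged from -0.10 to 0.24 and from -0.017 to 0.20 in the same way. The call of Tnnt3 at 30 against 0 days was lost in a fit of the 2 groups alone (-0.34, adjusted p = 0.0660).

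Replicate numbers were not treated as pairs. Same-numbered libraries of different groups had a mean correlation of 0.0013 between their deviations from the group means, with 4 of 24 pairs over 0.1. With 4 libraries a group such values cannot exclude a pairing. With the replicate block 7 of 7, 4 of 7 and 2 of 7 genes were called at 10, 30 and 60 against 0 days, as without it, and all 49 gene results stayed on the same side of the threshold. With 0.5 added to each count, each of the 51 ratio results kept its direction and its side of the threshold. Under medians and summed counts each of the 51 moved by less than the spread between libraries. No p-value was computed for those settings, and differences near 0 could change sign within that spread. Division of counts by gene length was not run. Depth limited none of the 7 genes, whose lowest count was 43 fragments.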

Other observations

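Cell types other than muscle had their own courses beside the troponins. Against 0 days 29.9% of all genes were called higher at 60 days and 29.4% lower at 10 days. In either direction 62.7% and 64.6% were called at 10 and 30 days. The 4 adipocyte markers summed to 7.42 to 41.5 CPM at 0 days and 49.6 to 119 CPM at 60 days, where all 4 were called higher, against 0 called at 10 and 30 days. The 4 Schwann cell markers were all called higher at 60 days, summing to 67.0 to 150 CPM against 37.6 to 62.0 CPM at 0 days. All 5 smooth muscle and pericyte markers were called lower at 10 days, at 106 to 161 CPM against 283 to 384 CPM, and 4 of 4 endothelial markers were lower there as well. With library totals 3 of 5 and 1 of 4 were called lower at 10 days, and the endothelial median turned from -0.55 to 0.11, while the adipocyte and Schwann cell calls at 60 days were 4 of 4 under each scaling tried.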
